A study of Mus musculus with 6 samples.

Results

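The expression of 10 genes encoding subunits of the BAF chromatin remodelling complex was compared between 46C-Ctrl and Zhx1-KO CP cells. The genes Smarca2, Smarca4, Smarcb1, Smarcc1, Smarcc2, Smarcd1, Smarcd2, Smarcd3, Smarce1 and Arid1a were taken by their symbols. All 10 were found among the 25701 genes of the table, and all 10 passed the filter on low values (a mean of 10 or more) and were tested. PolyA RNA was sequenced from CP (cardiac progenitor) cells derived from 46C, a mouse embryonic stem cell line that carries a green fluorescent protein reporter at Sox1. There were 3 libraries of the control genotype (46C-Ctrl) and 3 labelled as Zhx1 knockout (Zhx1-KO). Both groups share the 46C background and the same differentiation with BMP4, Activin A and VEGF, followed by VEGF, FGF10 and bFGF. The knockout was made in wild-type 46C cells with guide RNAs directed at the start and the stop of Zhx1, and lines were picked by PCR. Whether the libraries come from 1 clone is not stated. The experiments are described as independent, but the labels do not say what separates the libraries of a group, so the p-values measure the spread between these libraries. In bulk RNA, fewer cells of a type and less RNA per cell cannot be told apart.

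BAF, the mammalian SWI/SNF complex, uses the energy of ATP to slide or evict nucleosomes and so opens regulatory DNA to transcription factors. Each complex is assembled from 1 ATPase, a scaffold of core subunits and several positions that are filled by alternative paralogs. The choice of paralog differs between embryonic stem cells, neurons and muscle. In the heart, the Smarcd3 product BAF60C and the Dpf3 product BAF45C are known as subunits of cardiac and muscle complexes, and Smarca4 is needed for heart development.

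Zhx1 itself had normalized counts of 460, 181 and 457 in the 46C-Ctrl libraries and of 225, 325 and 308 in the Zhx1-KO libraries. The groups overlapped, with a log2 difference of -0.25 that was not called (adjusted p = 0.579, limma), and of -0.70, which was called (adjusted p = 0.0113, limma), in the fit without 46C-Ctrl replicate 2. The transcript level therefore does not settle the labels, and Zhx1-KO stands below for the libraries labelled so. The sums of the values ran from 13877648 to 14554583 per library. 46C-Ctrl replicate 2 had the lowest value of its group for 10 of 10 members, whereas it was lowest for 40.6% of all genes tested, and its share of mitochondrial transcripts was 2.77%, beside 1.72% to 1.87% in the other 5 libraries. The part of this library in the differences was tested only by leaving it out. This library is named below where that changes the call of a BAF or PBAF subunit gene.

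Smarcd3 was the member with the largest difference that passed the test, 9.05-fold lower in Zhx1-KO. Smarca4, Smarcc1, Smarcc2 and Arid1a also fell, by 13.4% to 27.8% of the 46C-Ctrl mean. Smarcd2 and Smarce1 rose, by 33.9% and 17.9%. Smarca2, Smarcb1 and Smarcd1 did not pass the test. A gene was called when the adjusted p of limma on log2(value + 1), taken over all 15372 genes tested, was under 0.05. In all, 5 of 10 members were called lower, against 26.4% of all genes tested, and 2 of 10 were called higher, against 25.6% of all genes tested. Called in either direction were 7 of 10 members and 52.0% of all genes. The groups did not overlap for 7 of 10 members and for 60.8% of all genes. These shares lie near the background or rest on few genes, so no statement about the complex as a whole is drawn from them. The median log2 fold change of the members was -0.25, beside 0.01 for all genes tested, and the median of their absolute log2 fold changes was 0.36, beside 0.41. A called fall of at least 2-fold was seen for 1 of 10 members and for 7.85% of all genes.

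**Figure D1:**
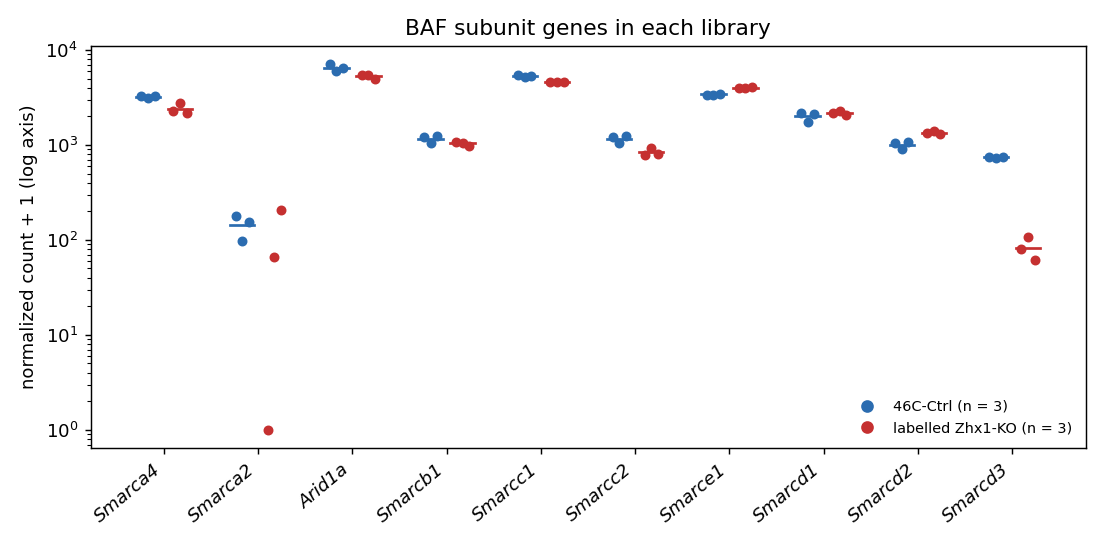
Normalized count plus 1 (log axis) of each BAF subunit gene in each library, with 46C-Ctrl in blue and the libraries labelled Zhx1-KO in red (n = 3 each); horizontal lines are group means, left out for Smarca2 in Zhx1-KO because 1 library lists it at 0. The Smarcd3 points separate by far the most among the members whose groups do not overlap, with 729.8 to 750.9 in 46C-Ctrl and 60.7 to 106.2 in Zhx1-KO.

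The Smarcd genes encode the BAF60 subunits, which fill 1 position of the complex with alternative paralogs and link it to transcription factors. Smarcd3 (BAF60C) lies on chromosome 5 of GRCm38, from 24590818 to 24624411 on the minus strand. Its normalized counts were 750.9, 729.8 and 750.8 in 46C-Ctrl (744 ± 12.2, SD, n = 3) and 79.6, 106.2 and 60.7 in Zhx1-KO (82.2 ± 22.8, SD, n = 3). Every Zhx1-KO library was far below every 46C-Ctrl library. On the log2 scale the difference was -3.20 ± 0.19 (standard error), with a 95% interval from -3.63 to -2.76 and an adjusted p of 9.9e-06 from limma. By size this fall ranked 178 among the 15372 genes tested. Over the other ways of processing, the log2 fold change stayed between -3.40 and -3.00 and the gene stayed called.

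Smarcd1 (BAF60A) did not show such a fall. It lies on chromosome 15, from 99702129 to 99713991 on the plus strand, and had 2170.9, 1762.0 and 2121.8 in 46C-Ctrl (2018 ± 223, SD, n = 3). The Zhx1-KO libraries had 2147.7, 2271.3 and 2074.5 (2164 ± 99.4, SD, n = 3), which overlap the 46C-Ctrl libraries. The log2 fold change was 0.11 (adjusted p = 0.333, limma), with a 95% interval from -0.09 to 0.30. Smarcd2 (BAF60B), known for its part in granulocyte development, lies on chromosome 11, from 106263179 to 106272972 on the minus strand. It had 1043.5, 910.0 and 1073.5 in 46C-Ctrl (1009 ± 87.1, SD, n = 3) and 1336.4, 1398.6 and 1318.5 in Zhx1-KO (1351 ± 42.0, SD, n = 3). All Zhx1-KO libraries were above all 46C-Ctrl libraries, and the log2 fold change was 0.42 ± 0.07 (SE, adjusted p = 0.00213, limma).

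Part of the Smarcd3 locus is shared with a neighbour. Of the 5120 exonic bases annotated to Smarcd3, 2466 (48.2%) are also exonic in Chpf2, a chondroitin polymerizing factor gene on the opposite strand. The authors set both the alignment and the StringTie quantification to a reverse-stranded library, while the setting of the counting behind the values used here is not given in these sources. Chpf2 had 434, 460 and 360 in 46C-Ctrl against 319, 234 and 268 in Zhx1-KO (log2 fold change -0.61, adjusted p = 0.0084, limma). Chpf2 was thus lower too, by less than Smarcd3, and the part of shared reads in either value was not tested. Among the other members the largest shared stretch was 7.13% of the exonic bases of Smarcd1, with Gm17349 on the opposite strand. Of the other subunit genes named below, Actl6a shares 11.6% with Mrpl47, Bicral 11.3% with Gm26904 and Phf10 9.56% with 1600012H06Rik, all on the opposite strand.

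The 250 bases upstream of the RefSeq start (GRCm38.p6) are shown for Smarcd3 and, below it, for Dpf3, because these are the subunit genes known from cardiac complexes and both fell about as far. Capitals mark matches, on either strand, to the core letters GATAA of GATA factors, to GGTGTG as known for T-box factors and to GGAATG as known for TEAD factors. The motifs were chosen after values and sequences had been seen. The RefSeq start used for Smarcd3 lies inside the annotated gene, and its window overlaps exonic bases of Smarcd3, while the window of Dpf3 overlaps no annotated gene.
Smarcd3, chr5:24602003-24602252, minus strand: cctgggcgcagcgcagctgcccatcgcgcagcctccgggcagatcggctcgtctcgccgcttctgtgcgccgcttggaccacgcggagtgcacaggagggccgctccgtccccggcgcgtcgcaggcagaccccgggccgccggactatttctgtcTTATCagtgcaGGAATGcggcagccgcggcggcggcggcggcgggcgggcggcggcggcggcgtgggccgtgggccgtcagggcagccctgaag
Dpf3, chr12:83487737-83487986, minus strand: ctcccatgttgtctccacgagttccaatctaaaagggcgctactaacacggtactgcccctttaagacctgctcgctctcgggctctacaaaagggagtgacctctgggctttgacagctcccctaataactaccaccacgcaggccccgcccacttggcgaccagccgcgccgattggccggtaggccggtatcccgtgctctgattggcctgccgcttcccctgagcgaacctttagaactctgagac
The Smarcd3 window is 76% G and C and holds 38 CpG dinucleotides, beside medians of 52.4% and 6 over all 32851 windows of this length. It contains the GATA motif 1 time, printed as its reverse complement, and the TEAD motif 1 time, without overlap between them. The Dpf3 window is 58.8% G and C with 16 CpG dinucleotides and contains none of the 3 motifs. The GATA motif occurs in 22.6%, the T-box motif in 16.3% and the TEAD motif in 12.6% of all windows. The window of Smarcd1, at 71.2% G and C, holds the GATA and the T-box motif 1 time each, and the window of Smarcd2, at 56.4%, holds none, and both overlap exonic bases of their own gene.

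The ATPase position is filled by BRG1, the product of Smarca4, or by BRM, the product of Smarca2. Smarca4, on chromosome 9 from 21616169 to 21704230 on the plus strand, had 3282.6, 3101.6 and 3266.0 in 46C-Ctrl (3217 ± 100.1, SD, n = 3) and 2283.7, 2761.7 and 2158.1 in Zhx1-KO (2401 ± 318, SD, n = 3). The Zhx1-KO libraries were lower without overlap, though the second of them stood nearest to 46C-Ctrl. The fall was 25.4% of the 46C-Ctrl mean (log2 fold change -0.43 ± 0.09, SE, adjusted p = 0.00509, limma). Smarca2, on chromosome 19 from 26605050 to 26778322 on the plus strand, varied within both groups. It had 177.5, 97.3 and 155.0 in 46C-Ctrl against 0, 64.7 and 207.7 in Zhx1-KO. The libraries overlapped, and Zhx1-KO held both the lowest and the highest value. Its log2 fold change of -2.55 had a standard error of 1.71 and an adjusted p of 0.249 (limma), and the exact two-sided permutation test gave p = 0.4. Without Zhx1-KO replicate 1, in which the gene is listed at 0, the log2 fold change was -0.26 (adjusted p = 0.699, limma). A listed 0 beside high values occurred in other genes too, with 27 genes listed at 0 in 1 Zhx1-KO library and at 100 or more in another. In 46C-Ctrl there were 40 such genes.

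The scaffold subunits Smarcc1 and Smarcc2 both fell. Smarcc1 (BAF155), the paralog that characterizes the embryonic stem cell complex, lies on chromosome 9 from 110117708 to 110240178 on the plus strand. It had 5424.2, 5133.7 and 5342.4 in 46C-Ctrl (5300.1 ± 149.8, SD, n = 3) and 4635.0, 4563.8 and 4567.1 in Zhx1-KO (4589 ± 40.2, SD, n = 3). The groups did not overlap, and the difference was small and even across libraries, with a log2 fold change of -0.21 ± 0.04 (SE, adjusted p = 0.00456, limma). Smarcc2 (BAF170), which is taken up into the complex as cells leave pluripotency, lies on chromosome 10 from 128459248 to 128490482 on the plus strand. It had 1218.1, 1051.8 and 1232.8 in 46C-Ctrl (1168 ± 100.5, SD, n = 3) and 791.1, 933.4 and 804.5 in Zhx1-KO (843 ± 78.6, SD, n = 3). This was the larger fall of the pair, 27.8% (log2 fold change -0.47 ± 0.09, SE, adjusted p = 0.00362, limma).

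Smarcb1 (SNF5 or BAF47), a core subunit and tumour suppressor on chromosome 10 from 75896769 to 75921617 on the minus strand, was not called. It had 1203.4, 1049.7 and 1234.9 in 46C-Ctrl (1163 ± 99.1, SD, n = 3) and 1082.4, 1056.8 and 965.5 in Zhx1-KO (1035 ± 61.4, SD, n = 3). The second 46C-Ctrl library lay within the range of Zhx1-KO. The log2 fold change was -0.17 (adjusted p = 0.122, limma), and without this library, 46C-Ctrl replicate 2, it was -0.24 and called (adjusted p = 0.0266, limma). Arid1a (BAF250A), the large DNA-binding subunit that defines the canonical BAF form, lies on chromosome 4 from 133679008 to 133756769 on the minus strand. It had 7081.1, 6018.8 and 6420.2 in 46C-Ctrl (6507 ± 536, SD, n = 3) and 5404.9, 5500.2 and 4956.2 in Zhx1-KO (5287 ± 291, SD, n = 3). All Zhx1-KO libraries were lower, with a log2 fold change of -0.30 ± 0.07 (SE, adjusted p = 0.00919, limma). Under quantile normalization the log2 fold change was -0.18 and the call was lost (adjusted p = 0.0585, limma).

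Smarce1 (BAF57), a core subunit with an HMG domain, lies on chromosome 11 from 99209047 to 99231017 on the minus strand. It had 3371.4, 3355.2 and 3473.7 in 46C-Ctrl (3400.1 ± 64.3, SD, n = 3) and 4022.2, 3969.1 and 4039.0 in Zhx1-KO (4010.1 ± 36.5, SD, n = 3). The groups were far apart for their spread, with a log2 fold change of 0.24 ± 0.04 (SE, adjusted p = 0.00206, limma). Both members that rose, Smarcd2 and Smarce1, lie on chromosome 11. Of the 1185 tested genes of chromosome 11, 675 were called higher and 114 lower, with a median log2 fold change of 0.42 (quartiles 0.07 and 0.85). Smarcd2 was itself the gene at this median, and Smarce1 was 0.19 below it on the log2 scale. The part of the chromosome in the rises of Smarcd2 and Smarce1 was not tested. The medians of the chromosomes of the other members (4, 5, 9, 10, 15 and 19) lay between -0.07 and 0.02.

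**Figure D2:**
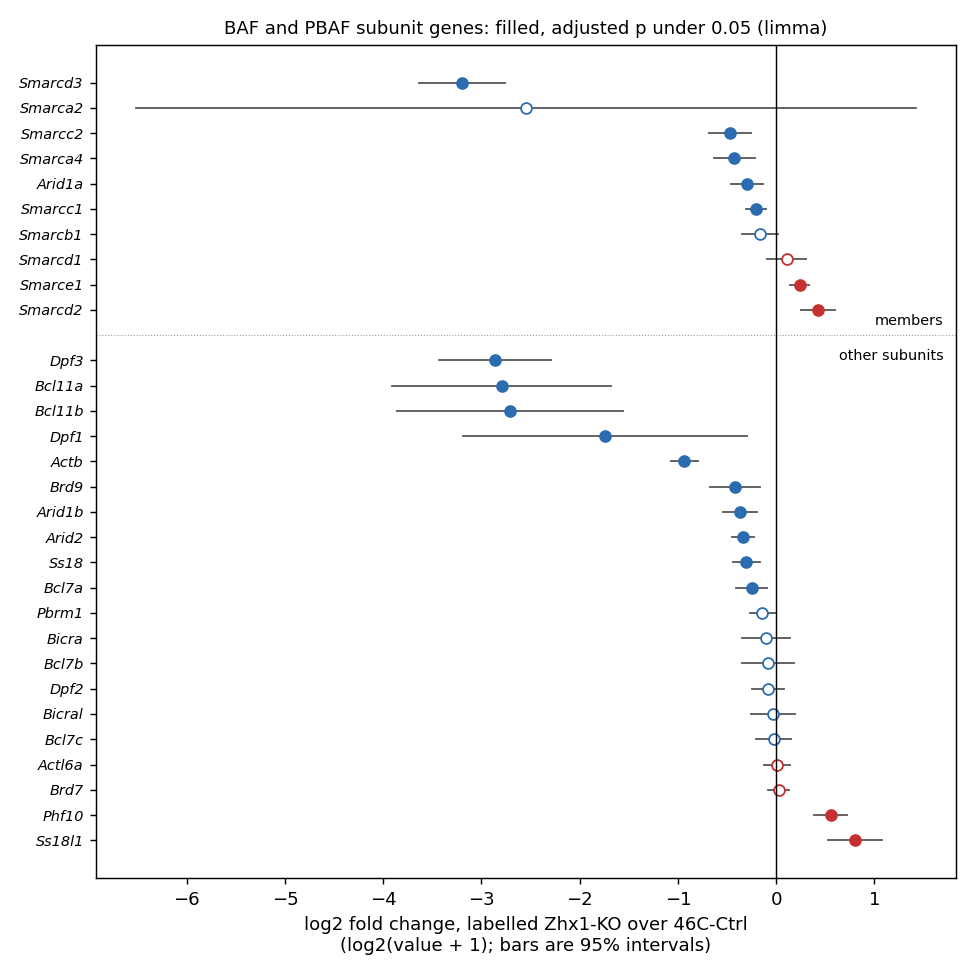
Log2 fold change of Zhx1-KO over 46C-Ctrl on the log2(value + 1) scale for the 10 members (top) and 20 other BAF and PBAF subunit genes (bottom), as points with 95% intervals from limma; filled points have an adjusted p under 0.05, blue is lower and red is higher. Smarcd3 (-3.20) and Dpf3 (-2.87) lie far to the left with short intervals, while the interval of Smarca2 reaches from -6.52 to 1.43.

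Levels were compared between genes per kb of exonic sequence. In 46C-Ctrl, Smarcc1 had the highest mean level, 677 normalized counts per kb, followed by Arid1a at 567. Smarce1 (511), Smarcd1 (501) and Smarca4 (497) came next, and the libraries of Smarcd1 overlapped those of both its neighbours. Smarcd2 (281) and Smarcc2 (210) were lower. Smarcb1 (147) and Smarcd3 (145) did not differ beyond their spread, and Smarca2 was lowest, at 6.82 to 12.4 in the 3 libraries. In Zhx1-KO, Smarce1 came first at 603 and Smarcc1 second at 586, without overlap between them. Smarcd3 had 16.1 normalized counts per kb there, in a range from 11.9 to 20.7 that overlapped that of Smarca2 (0 to 14.6). The order depended on the length used. Per kb of the longest protein-coding transcript, Smarce1 (1165) was above Smarcc1 (918) already in 46C-Ctrl, and Smarcd3 ranked 7 of 10 in 46C-Ctrl (429) and 9 of 10 in Zhx1-KO (47.4). By that length Smarcb1 ranked 4 of 10 in 46C-Ctrl (700) and was above Smarcd3 without overlap. The 46C-Ctrl libraries had 632 to 744 for Smarcb1 and 421 to 433 for Smarcd3.

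**Figure D3:**
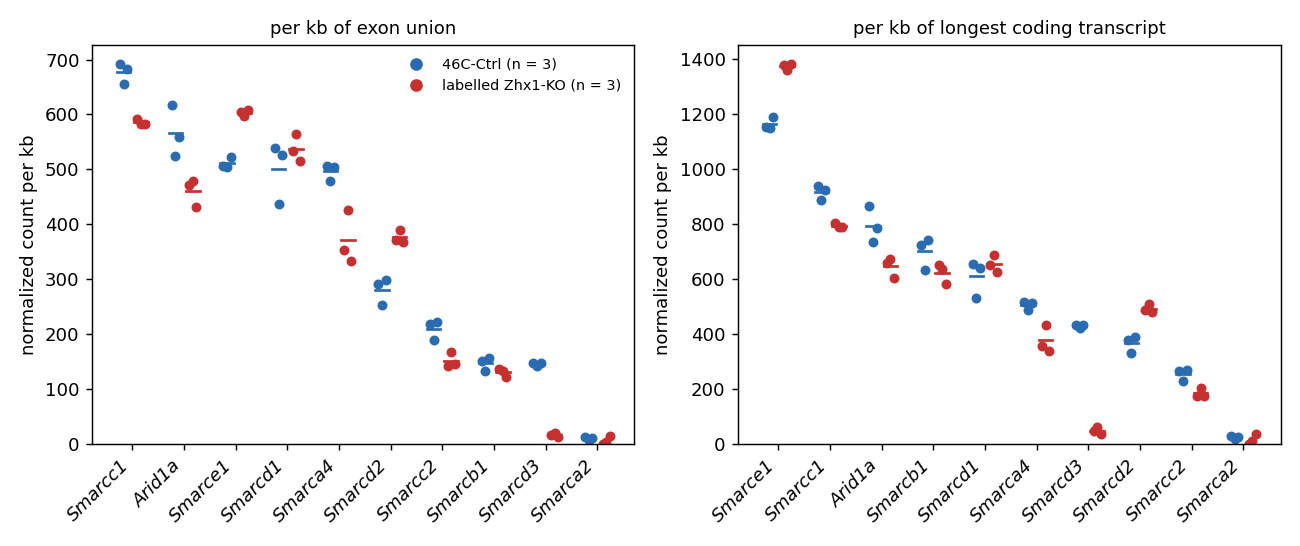
Normalized count per kb of each BAF subunit gene in each library (46C-Ctrl blue, labelled Zhx1-KO red, n = 3 each, lines are means, none for Smarca2 in Zhx1-KO), by the union of annotated exons on the left and by the longest protein-coding transcript on the right, ordered by the 46C-Ctrl mean. Smarcd3 drops from 145 to 16.1 on the left and from 429 to 47.4 on the right.

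Within the BAF60 position, the make-up of the transcript pool differed between the groups. Per kb of exon union, Smarcd3 made up 15.0%, 17.1% and 15.1% of the summed Smarcd level in 46C-Ctrl and 1.69%, 2.13% and 1.33% in Zhx1-KO. By the longest transcript the Smarcd3 share was 30.6% ± 1.87 (SD, n = 3) and 3.94% ± 0.90 (SD, n = 3). Smarcd2 went from 30.3% ± 0.50 to 40.5% ± 0.55 (SD, n = 3 each), and Smarcd1 from 54.0% ± 1.37 to 57.8% ± 0.17 (SD, n = 3 each), per kb of exon union. By the longest transcript, Smarcd2 went from 26.1% ± 0.49 to 41.2% ± 0.76 and Smarcd1 from 43.3% ± 1.66 to 54.8% ± 0.18 (SD, n = 3 each). In 46C-Ctrl the Smarcd3 share was thus below that of Smarcd2 by exon union and above it by the longest transcript. The summed Smarcd level per kb was 928 ± 81.4 and 930.1 ± 40.7 (SD, n = 3 each) by exon union but 1406 ± 105 and 1194 ± 58.3 (SD, n = 3 each) by the longest transcript, so whether the total was lower turns on the length chosen. Among the ATPases, Smarca4 made up 95.8% to 100% of the summed Smarca4 and Smarca2 level per kb of exon union, and 90.6% to 100% by the longest transcript. Smarcc1 made up 76.3% ± 1.12 of the Smarcc level per kb of exon union in 46C-Ctrl and 79.4% ± 1.60 in Zhx1-KO (SD, n = 3 each).

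Ratios of paralogs within a library, taken from log2(value + 1), depend on the scaling between libraries only through the added 1. The added 1 matters most for Smarca2 in Zhx1-KO replicate 1, where the gene is listed at 0. The log2 ratio of Smarcd3 to Smarcd1 was -1.53, -1.27 and -1.50 in 46C-Ctrl and -4.74, -4.41 and -5.07 in Zhx1-KO, a difference of -3.31. The log2 ratio of Smarcd3 to Smarcd2 was -0.47, -0.32 and -0.52 in 46C-Ctrl and -4.05, -3.71 and -4.42 in Zhx1-KO, a difference of -3.62. Both ratios were lower in every Zhx1-KO library than in any 46C-Ctrl library. The ratios are not corrected for length, so they compare libraries and not the levels of the genes. The log2 ratio of Smarcd2 to Smarcd1 was -1.06, -0.95 and -0.98 in 46C-Ctrl and -0.68, -0.70 and -0.65 in Zhx1-KO. The log2 ratio of Smarcc2 to Smarcc1 differed by -0.26 and that of Arid1b to Arid1a by -0.07. For Smarcc2 to Smarcc1 the groups almost met, at -2.286 in 46C-Ctrl replicate 2 and -2.288 in Zhx1-KO replicate 2. The groups did not overlap for these 5 ratios, and the exact two-sided permutation test gave p = 0.1 for each (0.12 after Benjamini-Hochberg adjustment over 6 ratios), the smallest p that 3 libraries against 3 allow, so none could pass 0.05. The log2 ratio of Smarca2 to Smarca4 overlapped (difference -2.12, exact p = 0.6), and without Zhx1-KO replicate 1 it was 0.14 higher in Zhx1-KO.

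**Figure D4:**
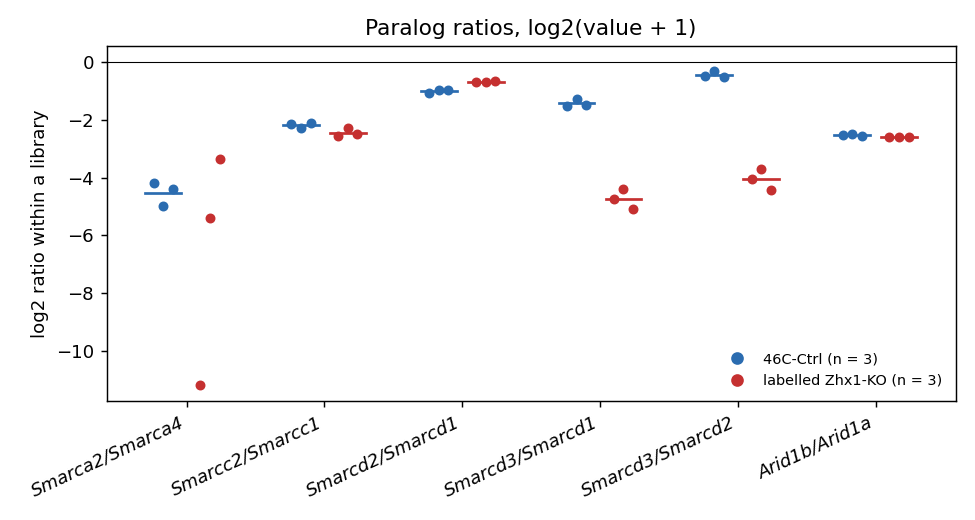
Log2 ratio of paralog pairs within each library, from log2(value + 1), with 46C-Ctrl in blue and the libraries labelled Zhx1-KO in red (n = 3 each, lines are means, none for Smarca2/Smarca4 in Zhx1-KO). Both Smarcd3 ratios lie more than 3 log2 units lower in Zhx1-KO, while the Smarca2/Smarca4 points of the groups overlap.

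Of a list of 21 other BAF and PBAF subunit genes, 20 were in the table and all 20 were tested. Actl6b was not analysed here. Of the 20, 10 were called lower (26.4% of all genes tested), 2 were called higher (25.6% of all genes) and 8 did not pass the test, and the median log2 fold change was -0.20. Falls of at least 2-fold were called for 4 of 20, beside 7.85% of all genes. Dpf3 (BAF45C), a histone-reading subunit on chromosome 12 from 83213745 to 83487716 on the minus strand, had 159.9, 125.3 and 147.6 in 46C-Ctrl (144 ± 17.6, SD, n = 3) and 16.1, 16.2 and 25.5 in Zhx1-KO (19.3 ± 5.41, SD, n = 3). It was 7.48-fold lower (log2 fold change -2.87 ± 0.25, SE, adjusted p = 5.9e-05, limma), close in size to Smarcd3, and ranked 226 among all falls. The fall of Dpf3 was large in each of the 3 libraries.

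Bcl11a and Bcl11b, zinc finger proteins of neural and lymphoid BAF complexes, also fell from low levels. Bcl11a had 42.9, 40.4 and 39.0 in 46C-Ctrl against 7.05, 2.02 and 7.92 in Zhx1-KO (log2 fold change -2.80, adjusted p = 0.00193, limma), and it too lies on chromosome 11. Bcl11b had 49.7, 32.1 and 43.2 in 46C-Ctrl against 11.1, 5.06 and 2.64 in Zhx1-KO (log2 fold change -2.71, adjusted p = 0.00264, limma). The groups were apart for both genes. Dpf1 (BAF45B), the paralog of Dpf3 known from neurons, had 70.2, 74.5 and 67.5 in 46C-Ctrl against 29.2, 44.5 and 6.16 in Zhx1-KO (log2 fold change -1.74, adjusted p = 0.0468, limma). Its Zhx1-KO libraries were widely spread, and the call was lost under 8 of 14 alternatives, with adjusted p from 0.0188 to 0.0981 (limma). Its log2 fold change was -0.95 without Zhx1-KO replicate 3 and -2.28 without Zhx1-KO replicate 2. Without 46C-Ctrl replicate 2 it was -1.70 and the call was lost (adjusted p = 0.0948, limma). Actb, whose β-actin is a BAF subunit as well as the main cytoskeletal actin, had 34694, 36025 and 35794 in 46C-Ctrl against 19134, 19470 and 17094 in Zhx1-KO (log2 fold change -0.94, adjusted p = 1.3e-05, limma). This gene, often used as a reference, was lower in every Zhx1-KO library, and its log2 fold change was between -1.02 and -0.85 under every alternative.

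The other called falls were modest. They were those of Brd9 (log2 fold change -0.42), a subunit of the non-canonical form, Arid1b (-0.37), the paralog of Arid1a, Arid2 (-0.34), which defines PBAF, Ss18 (-0.31) and Bcl7a (-0.25). The call of Bcl7a was lost under 4 of 15 alternatives. The called rises were Phf10 (BAF45A), a PBAF subunit, and Ss18l1 (CREST), the paralog of Ss18 known from neurons. Phf10 had 885.5, 1008.3 and 978.6 in 46C-Ctrl against 1334.4, 1381.4 and 1500.7 in Zhx1-KO (log2 fold change 0.55, adjusted p = 0.000516, limma). Ss18l1 had 140.4, 119.1 and 133.9 in 46C-Ctrl against 222.7, 245.7 and 218.3 in Zhx1-KO (log2 fold change 0.80, adjusted p = 0.000973, limma). Each rose without overlap. Of the related genes, Dpf1, Dpf3 and Ss18 were called lower. Dpf2, with 1101 in 46C-Ctrl and 1042 in Zhx1-KO on average, was not called (log2 fold change -0.08, adjusted p = 0.370, limma). The genes that did not pass the test were Pbrm1, Brd7, Dpf2, Actl6a, Bcl7b, Bcl7c, Bicra and Bicral, with log2 fold changes from -0.14 to 0.02.

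Markers of cell types moved beside these subunits. For every marker list, here and in the next paragraph, the shares of all genes tested were 26.4% called lower and 25.6% called higher. Of 7 cardiac progenitor markers, all were detected in every 46C-Ctrl library, 6 were lower and 1 was not called, and their summed level was 9106 to 10274 in 46C-Ctrl and 1173 to 1274 in Zhx1-KO. The log2 fold changes were -4.87 for Hand1, -4.48 for Tbx5, -4.07 for Gata4, -2.52 for Hand2, -1.03 for Mef2c and -0.82 for Nkx2-5, while Isl1, which was not called, had -0.23 (adjusted p = 0.311, limma). In 46C-Ctrl, Hand1 made up most of the summed level of these markers (5774 on average, against 198 in Zhx1-KO). The summed levels of the endoderm and the pluripotency markers, given below, were lower in Zhx1-KO too. Of 8 endothelial markers, 6 were higher, 1 lower and 1 not called (summed level 1328 to 1456 and 4145 to 4507), with log2 fold changes of 3.12 for Cdh5 and 1.72 for Kdr. The lower gene, Sox17, is also on the endoderm list. Of 9 neural markers tested, 6 were higher, 1 lower and 2 not called (3608 to 4063 and 4126 to 4235), with 3.74 for Sox1 and 1.73 for Tubb3, and Pax6 was at 0 in every 46C-Ctrl library. The lower gene was Nes, which makes up most of the summed level (2804 in 46C-Ctrl and 1652 in Zhx1-KO on average, log2 fold change -0.76). Of the subunit genes described above as neural or known from neurons, Bcl11a, Bcl11b and Dpf1 were lower and Ss18l1 was higher. The call of Dpf1 depended on the processing. That description is not a full list of the subunits of neural complexes.

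Of 8 endoderm markers, 7 were lower, 0 higher and 1 not called (3754 to 4031 and 1395 to 1488), with -3.78 for Apob and -2.30 for Gata6. Of 6 pluripotency markers tested, 4 were lower, 1 higher and 1 not called (5672 to 5745 and 3262 to 3402), with -1.78 for Pou5f1 and 1.75 for Sox2, and Dppa3, which was too low to be tested, was at 0 in every Zhx1-KO library and in 2 of 3 46C-Ctrl libraries. Of 6 skeletal muscle and paraxial mesoderm markers tested, 4 were higher, 0 lower and 2 not called (88.0 to 154 and 939 to 1023), with 4.99 for Foxc2 and 1.93 for Meox1. In Zhx1-KO, Foxc2 made up most of this summed level (721 on average, against 23.3 in 46C-Ctrl). Meox2, Myf5 and Myod1 of this list were too low to be tested. The part of any of these marker differences in the levels of the BAF subunit genes was not tested.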

How the data were processed

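PolyA RNA of 6 libraries of CP cells was sequenced from libraries made with an Illumina TruSeq kit. The authors used cutadapt 1.18 for trimming and HISAT2 2.1.0 for alignment to GRCm38 with the GENCODE M19 annotation, and computed FPKM with StringTie 1.3.4d, both with the strand setting of a reverse-stranded library. FPKM values were not used here. DESeq2 and Cufflinks are also named in the submitters' processing notes. The deposited values are a signal per gene that the authors name normalized counts, and by their steps each library was scaled with 1 factor. The program that counted the reads behind these values, and its own strand setting, are not given in the sources used here. All values are whole multiples of 1 step per library, which lies between 0.880 and 1.05 (100% within 0.01 step), and the library depth counted in steps was 13769967 to 15940874. No count test was run, because the steps of 2 libraries lie so near 1 that whole reads were not taken as recovered there, and values were tested on a log scale. Every sample column was used.

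After a filter for a mean of 10 or more, 15372 genes were fitted with limma 3.58.1 (R 4.3.3) using log2(value + 1), a variance trend over the mean and the group alone as a term, with p-values adjusted by Benjamini-Hochberg across all these genes. A fold change on this scale understates the change of low genes, but a listed 0 can enlarge it. For Smarca2 the Zhx1-KO mean was 36.6% lower, while the log2 fold change was -2.55. Ratios were tested by exact permutation, two-sided. Gene positions and exon lengths came from GENCODE M21 (GRCm38) for 15153 of the tested genes, and promoter windows from RefSeq (GRCm38.p6), in which Smarcd1, Smarcd2, Smarcd3 and Dpf3 were matched by symbol. The fit was tested on simulated data with known changes. It called 85 of 100 genes changed 2-fold, 66 of 100 changed 1.5-fold and 12 of 14523 unchanged genes. Far fewer genes were changed there than the 52.0% called in the data, and smaller changes were not simulated.

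The members and all gene lists were chosen with earlier results of these data known. The text names all 10 members, Zhx1, every called gene of the other BAF and PBAF list and the rest by value range, up to 3 genes with the smallest adjusted p of each other remodeller list, every cardiac progenitor marker and up to 2 genes with the smallest adjusted p of each other marker list. Genes that share exonic bases with a subunit gene, and Pax6, Dppa3, Sox17, Nes, Meox2, Myf5, Myod1, Smarca1, Rbbp4 and Chd5, were named after their values had been seen. Alternatives were the pseudocount (0.5, 5), the filter on low values (none, mean of at least 50), limma without trend, quantile normalization, the replicate number as a block, leaving out each library, and a TMM-like rescaling. Scaling to library totals outside chromosome 11 and the longest transcript length were chosen after seeing the data.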

Additional observations from a re-analysis of the deposited data

How the results depend on the processing

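Among the members, 4 to 6 were called lower and 2 higher under every alternative. Smarcd3, Smarca4, Smarcc1, Smarcc2, Smarcd2 and Smarce1 stayed called in all of them, while Arid1a and Smarcb1 changed calls as given above. The small fall of Smarcc1 varied in size, with log2 fold changes from -0.23 to -0.12 and adjusted p up to 0.042 (limma). Leaving out each library in turn gave 5 to 6 members lower, 8 to 10 other BAF and PBAF subunit genes lower, and log2 ratio differences of -3.75 to 0.14 for Smarca2/Smarca4, which reversed without Zhx1-KO replicate 1. Of the other remodeller genes, 9 were called higher, but 17 under quantile normalization and 20 with library totals outside chromosome 11, which moved the median of all genes to 0.10 and the share of called genes that were higher from 49.3% to 58.5%. Scaling to totals outside chromosome 11 divides each library by 1 factor, which shifts most log2 fold changes by nearly the same amount. Of the same remodeller genes, 17 were called lower, but 14 under quantile normalization and 13 with library totals outside chromosome 11. The cause of the change under quantile normalization was not tested. Some genes that were not called changed sign. These were Dpf2 under quantile normalization (0.038) and totals outside chromosome 11 (0.0077), Actl6a under the TMM-like rescaling (-0.0082) and without 46C-Ctrl replicate 3 (-0.0040) or Zhx1-KO replicate 3 (-0.035, highest value with a library left out 0.036), Bcl7b with totals outside chromosome 11 (0.0060), Bcl7c under quantile normalization (0.085), without 46C-Ctrl replicate 3 (0.0062), without Zhx1-KO replicate 1 (0.025, lowest with a library left out -0.087) and with totals outside chromosome 11 (0.060), and Bicral without Zhx1-KO replicate 2 (0.040, lowest with a library left out -0.11) and with totals outside chromosome 11 (0.051). Pbrm1 was called under the TMM-like rescaling (-0.16, adjusted p = 0.0418, limma). The replicate numbers did not pair the libraries (correlations of same-numbered deviations 0.0042, -0.07 and 0.00059, none the best match for its number), and the replicate block changed the calls from 7998 to 7374 genes and left 5 members lower and 2 higher. The effect of depth on the low genes was not tested.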

Other observations

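Genes of the other remodeller families differed less than Smarcd3 and Dpf3, which are the called subunit genes with the largest falls. The median absolute log2 fold change was 0.36 for the BAF members and 0.32 for the other BAF and PBAF subunits. It was 0.20 for the ISWI list, 0.22 for the CHD and NuRD list and 0.29 for the INO80, SRCAP and p400 list, beside 0.41 for all genes tested. The shares of all genes tested were 26.4% lower and 25.6% higher. Of 9 ISWI genes, 3 were lower, 1 was higher and 5 were not called. Baz1a, which encodes the ACF1 partner of the ISWI ATPase, had the largest log2 fold change of these, -1.29 (adjusted p = 2.6e-05, limma), with Rsf1 at -0.74 and Baz1b at -0.38. The 1 ISWI gene that was higher was the ATPase Smarca1 (0.62), named after its value was seen. Of 20 CHD and NuRD genes, 9 were lower, 4 higher and 7 not called, with Mbd3 (-0.62), Rbbp7 (-0.60) and Gatad2a (-0.56), all subunits of the NuRD deacetylase complex, lower at adjusted p of 7.0e-05, 1.0e-04 and 1.7e-04 (limma). Among the genes of this list that were higher were Rbbp4 (0.19), also a NuRD subunit, and Chd5 (1.14, adjusted p = 0.0248, limma), the largest difference of the list, both named after their values were seen. Of 16 INO80, SRCAP and p400 genes, 5 were lower, 4 higher and 7 not called, with log2 fold changes of -0.84 for Srcap, -0.69 for Ino80c and -0.45 for Ino80e. The medians of these lists were -0.01, -0.18 and 0.13, beside -0.25 for the BAF members.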
